A study of Mus musculus with 12 samples.

Results

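The 10 complement genes followed across the walls of 4 mouse arteries were C1qa, C1qb, C1qc, C1s1, C2, C3, C4b, C6, C7 and Cfb. They were chosen by name, and a gene was measured through a probe set whose annotation carries its symbol alone. By this rule 9 of the 10 were measured, out of 19938 genes in all, and each of the 9 had 1 such probe set; C3, the central component, had none and is not analysed here. Total RNA came from untreated wild-type mice of the C57BL/6 background at 8 weeks of age, with no transgene or other allele named in any group. The 4 groups were ascending aorta, descending aorta, coronary artery and superior mesenteric artery, the vessel that feeds much of the intestine, each with 3 arrays labelled as biological replicates. Whether a replicate stands for 1 animal or several is not stated. Every p-value therefore rests on the spread among these 12 samples, which may be single animals or pools. The series was made to look for expression tied to the embryonic origin of a vessel.

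Complement is a cascade of plasma and tissue proteins that tags and lyses microbes and marks dying cells for removal. In the classical pathway C1q binds its target, the protease C1s cleaves C4 and C2, and the product cleaves C3; in the alternative pathway factor B, encoded by Cfb, supplies the protease instead. The terminal components, among them C6 and C7, assemble into the membrane attack complex. The liver makes most circulating complement, C1q comes mainly from macrophages and dendritic cells, and fibroblasts and other stromal cells can make several components locally.

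Values are log2 signals as deposited, levels are means ± SD over 3 arrays, and differences are log2 differences ± SE from limma with Benjamini-Hochberg adjustment over all 19938 genes. A gene was called at an adjusted p under 0.05. Detection calls were not used here, so it is not known whether low levels lie above background, and 3 arrays a vessel limit the precision. Because the arrays hold whole vessel pieces, fewer cells of a type and less RNA per cell cannot be told apart. Some features of the arrays touch the results, and their part was not tested except where a fit without an array is given. The coronary artery arrays carried heart muscle transcripts, with a cardiomyocyte list mean of 10.56 to 10.77 against 3.96 to 6.25 on the other 9 arrays, and less smooth muscle transcript, with a list mean of 5.41 to 5.69 against 6.09 to 9.27. Ascending aorta replicate 1 stood apart with a B cell list mean of 7.90, against 4.05 and 4.08 in its group, and a fibroblast list mean of 5.88, against 7.52 to 8.25 on the other 11 arrays. In superior mesenteric artery replicate 1 carried more smooth muscle transcript, with a list mean of 9.27 against 6.09 and 6.52, and less macrophage transcript than replicates 2 and 3. Other lists differed within that vessel too: over replicates 1, 2 and 3 the B cell list mean was 4.72, 6.81 and 6.55, the T cell list mean 5.18, 6.28 and 6.32, and the pancreatic acinar list mean 5.04, 4.07 and 9.45, against 3.29 to 4.51 for the last on the other 9 arrays. In the same order the hepatocyte list mean was 3.91, 5.58 and 3.83, against 3.54 to 4.93 on the other 9 arrays. The neutrophil list mean was 4.01, 5.17 and 6.05, against 3.968 to 5.175.

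C7 was the member that separated the vessels. It was lowest in coronary artery, by 6.56-fold against descending aorta and 5.82-fold against superior mesenteric artery, and it was the only one of the 9 members to pass the F test across the 4 vessels. That is 1 of 9 members where 4.72% of all genes passed, and 4 of 9 had an unadjusted p under 0.05, where 16.4% of all genes did. In the pairwise contrasts 1 of 9 members passed for coronary artery against descending aorta, where 3.14% of all genes did, and 1 of 9 for coronary against superior mesenteric artery, where 3.24% did. In the other contrasts limma called 0 of 9: ascending aorta against coronary artery (background 2.47%), against descending aorta (0.015%) and against superior mesenteric artery (0.176%), and descending aorta against superior mesenteric artery (3.2%). At an unadjusted p under 0.05 these 4 contrasts held 3, 1, 4 and 1 of 9 members, where 14.8%, 9.64%, 7.22% and 13.9% of all genes fell under it. The median member difference was -0.87 for coronary minus superior mesenteric artery and -0.81 for ascending aorta minus superior mesenteric artery, where the medians over all genes were -0.018 and -0.0049. For descending aorta minus superior mesenteric artery it was -0.48, against -0.0080 over all genes. For coronary artery minus descending aorta it was -0.046, against -0.0069 over all genes. The C1q genes are among these members, and their differences from superior mesenteric artery turned sign in some alternative fits.

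**Figure D1:**
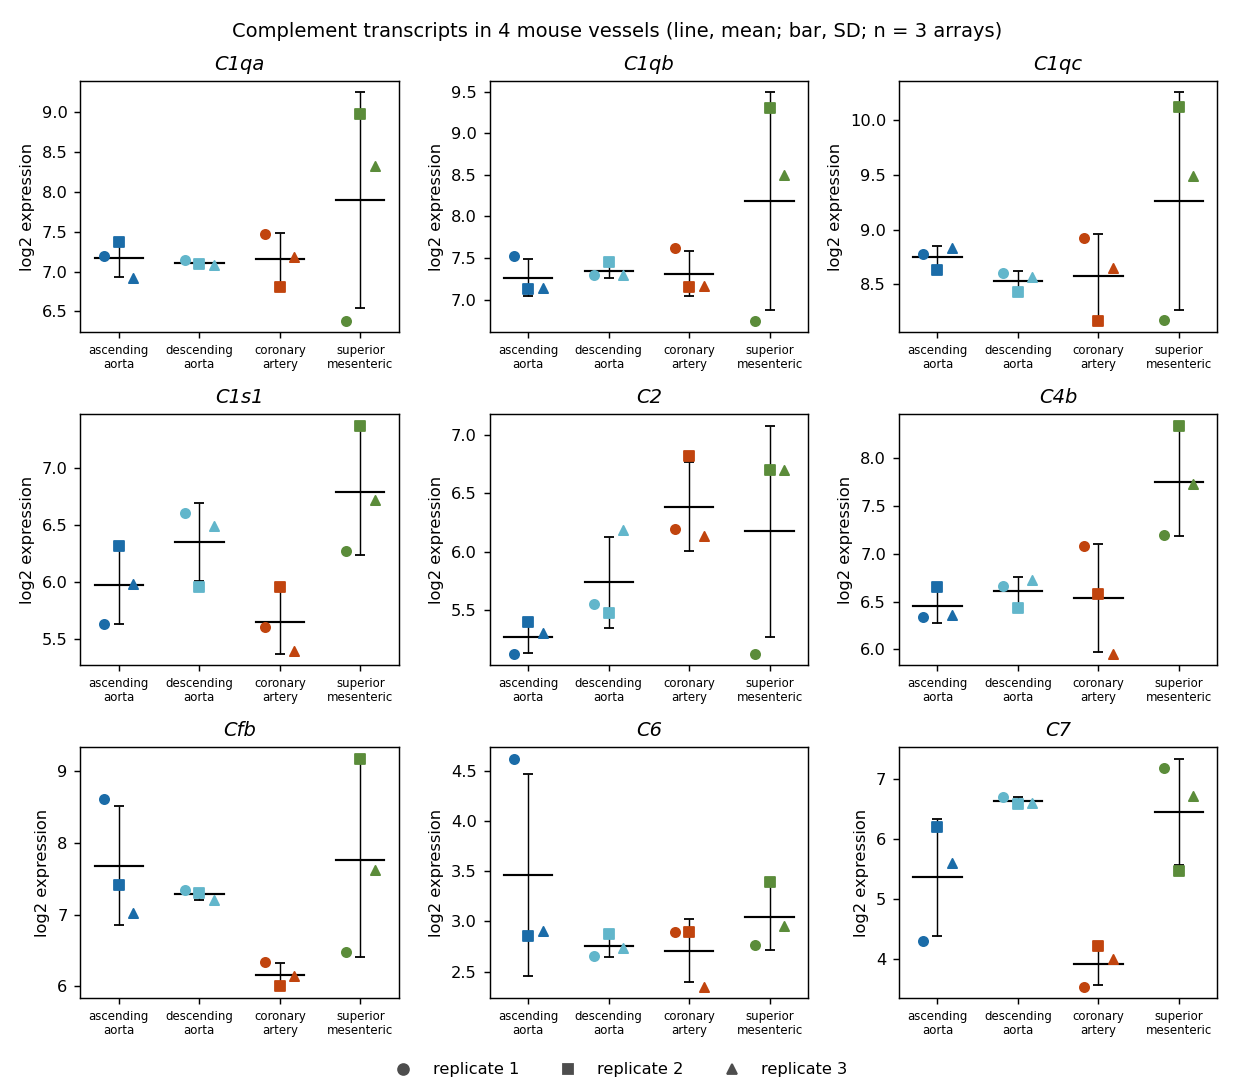
Log2 signal of the 9 measured complement genes in each of the 12 arrays, grouped by vessel, with 1 point per array, its shape giving the replicate, lines for vessel means and bars for the SD. C7 and Cfb lie lowest on the 3 coronary artery arrays, and the C1q genes are spread most widely in superior mesenteric artery.

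The start region of C7 is shown because it is the member whose level differed most between vessels. The RefSeq table on GRCm38.p6 holds promoter windows for 5 of the 9 measured members (C1qb, C1qc, C1s1, C6 and C7). The 250 bases before each start were searched on both strands for 3 motifs. These were GAGGAA, a form of ETS family site, GAAANNGAA, a paired interferon regulatory factor core, and TTCNNNGAA, the STAT palindrome. Other forms of ETS site were not counted. The C7 window, on the minus strand at chr15:5063774-5064023, held 1 match to TTCNNNGAA, 164 bases before the start, printed here in capitals.
C7: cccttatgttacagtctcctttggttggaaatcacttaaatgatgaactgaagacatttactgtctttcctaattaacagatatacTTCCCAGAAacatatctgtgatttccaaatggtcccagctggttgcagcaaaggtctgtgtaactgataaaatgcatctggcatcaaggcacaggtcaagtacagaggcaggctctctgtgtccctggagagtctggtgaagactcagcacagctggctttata
Of 32851 windows of the same length, 7.02% hold that motif, and the C6 and C1s1 windows held 0 matches to any of the 3 motifs. A match describes the letters and says nothing of binding.

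C7 binds the C5b and C6 complex and inserts it into the target membrane. Its log2 level was 6.707, 6.587 and 6.596 in the 3 descending aorta arrays, with a mean of 6.63 ± 0.067. In superior mesenteric artery it was 7.19, 5.47 and 6.71, with a mean of 6.46 ± 0.89. In ascending aorta it was 4.29, 6.21 and 5.60, with a mean of 5.36 ± 0.98. All 3 of these groups lay above coronary artery, where the values were 3.535, 4.215 and 3.996 and the mean was 3.92 ± 0.35. The highest coronary value, 4.22, lay just under the lowest ascending aorta value, 4.29.

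The moderated F test gave an adjusted p of 0.0114 for C7. Coronary artery minus descending aorta was -2.71 ± 0.47, with a 95% interval of -3.73 to -1.70 and an adjusted p of 0.00587, and it passed in every alternative run. Coronary minus superior mesenteric artery was -2.54 ± 0.47, with an interval of -3.56 to -1.52 and an adjusted p of 0.00932. Ascending aorta lay between the extremes: it exceeded coronary artery by 1.45 ± 0.47, a 2.73-fold difference that did not pass (adjusted p = 0.156), and it lay 1.26 under descending aorta (adjusted p = 0.451). Descending aorta and superior mesenteric artery, the neighbours at the top of the order, differed by 0.17 ± 0.47 (adjusted p = 0.914), with an interval of -0.85 to 1.19.

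Apart from coronary artery against descending aorta, the calls of C7 turned on single arrays. Without ascending aorta replicate 1 the difference from coronary artery was 1.99 ± 0.40 and passed (adjusted p = 0.0119). The F test of C7 did not pass without coronary artery replicate 1 (adjusted p = 0.0636) or replicate 3 (adjusted p = 0.053). Without superior mesenteric artery replicate 3 the adjusted p for coronary against superior mesenteric artery was 0.05, at a difference of -2.41. Over the 12 arrays C7 correlated with the cardiomyocyte list mean at r = -0.696 and with the smooth muscle list mean at r = 0.731. Both list means also separate coronary artery from the other vessels. Against descending aorta limma called 10 of 10 members of the cardiomyocyte list, all higher in coronary artery. Of the smooth muscle list it called 2 of 12, 1 higher and 1 lower, where 3.14% of all genes were called. The part of both lists in the C7 result was not tested.

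**Figure D2:**
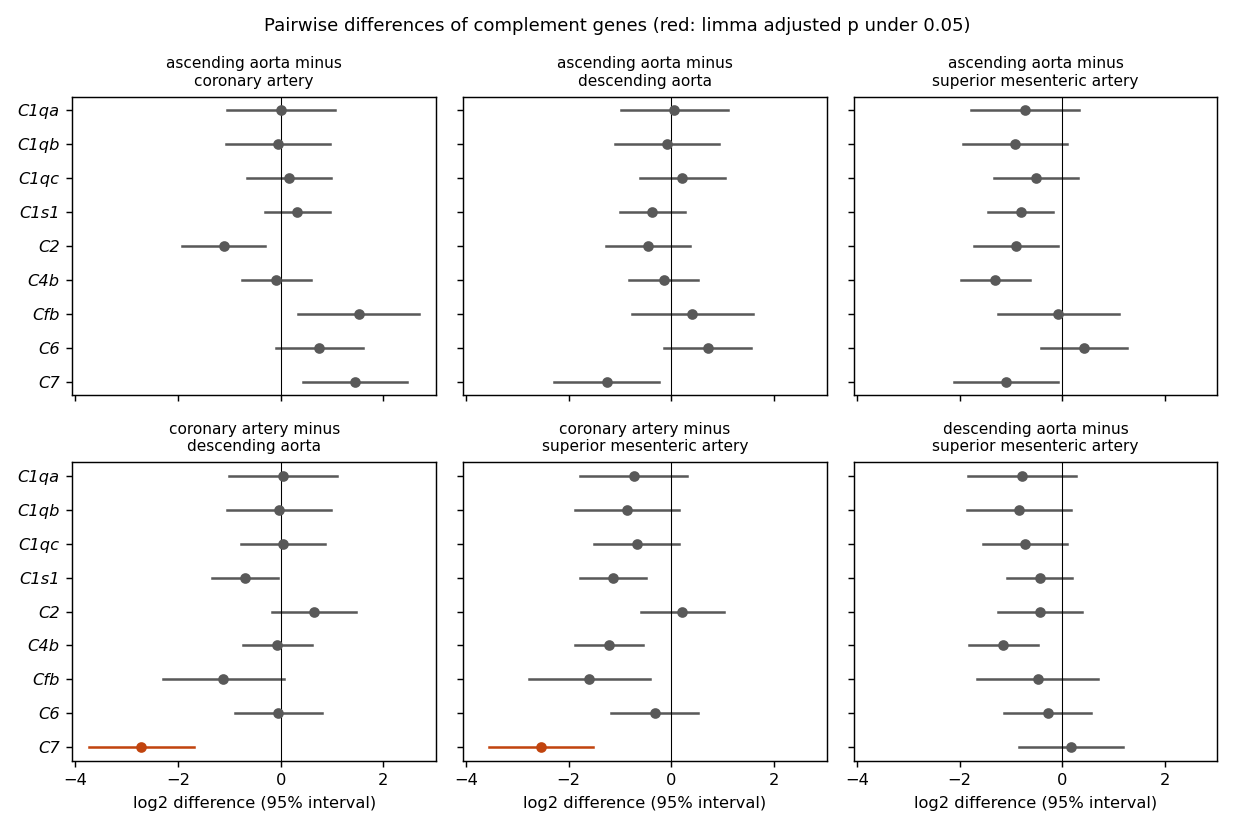
Log2 differences with 95% intervals from limma for the 9 members in the 6 vessel contrasts, with red marking an adjusted p under 0.05. C7 is red in coronary artery against descending aorta, at -2.71, and against superior mesenteric artery, at -2.54, and no other interval is red.

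C6, the component that C7 follows in the membrane attack complex, had no comparable pattern. Its log2 level was 2.65 to 2.88 in descending aorta, 2.35 to 2.89 in coronary artery and 2.77 to 3.39 in superior mesenteric artery. In ascending aorta it was 4.62, 2.86 and 2.91, so replicate 1 alone stood above the other 11 arrays. The F test gave an adjusted p of 0.586. The difference of 0.75 ± 0.39 between ascending aorta and coronary artery (adjusted p = 0.393) came to 0.17 without that array. That array also carried high lymphocyte transcripts, with a T cell list mean of 7.92. C6 and C7 lie on chromosome 15 with Mroh2b between them.

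The 3 chains of C1q, A, B and C, are encoded side by side on chromosome 4 in the order C1qb, C1qc, C1qa. Their start regions are shown for C1qb and C1qc because these genes are made together in macrophages, where the ETS factor PU.1 acts. Each window held 1 GAGGAA match or its reverse complement TTCCTC, in capitals, 30 bases before the start in C1qb (chr4:136886201-136886450, minus strand) and 193 bases before it in C1qc (chr4:136892915-136893164, minus strand).
C1qb: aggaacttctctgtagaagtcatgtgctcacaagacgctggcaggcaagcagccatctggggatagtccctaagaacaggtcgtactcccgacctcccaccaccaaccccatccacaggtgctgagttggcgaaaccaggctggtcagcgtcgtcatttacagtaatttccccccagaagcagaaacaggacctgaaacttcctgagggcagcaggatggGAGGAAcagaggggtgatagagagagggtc
C1qc: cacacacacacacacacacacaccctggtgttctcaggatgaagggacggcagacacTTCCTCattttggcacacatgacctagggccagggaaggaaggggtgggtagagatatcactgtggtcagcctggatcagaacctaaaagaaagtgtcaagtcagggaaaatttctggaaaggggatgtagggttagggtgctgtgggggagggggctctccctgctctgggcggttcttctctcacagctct
Of the 32851 windows, 23.3% hold GAGGAA, so a match is common. C1qa has no window there.

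The C1q genes were even across the aorta and coronary artery and uneven among the superior mesenteric artery arrays. C1qa lay at 7.20, 7.37 and 6.92 in ascending aorta, 7.14, 7.10 and 7.08 in descending aorta, and 7.47, 6.81 and 7.19 in coronary artery. In superior mesenteric artery it was 6.38, 8.97 and 8.32, so replicate 1 gave the lowest value of the 12 arrays and replicates 2 and 3 the highest. C1qb had the same order there, at 6.745, 9.303 and 8.495, against 7.13 to 7.63 on the other 9 arrays. C1qc was 8.18, 10.12 and 9.49, against 8.17 to 8.92.

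None of the 3 passed the F test, with limma's adjusted p of 0.667 for C1qa, 0.553 for C1qb and 0.593 for C1qc. Descending aorta minus superior mesenteric artery was -0.79 ± 0.48 for C1qa (adjusted p = 0.519), -0.83 ± 0.47 for C1qb (adjusted p = 0.469) and -0.73 ± 0.38 for C1qc (adjusted p = 0.427). The result turned on which superior mesenteric artery arrays were kept. Replicate 1 gave the lowest C1qa and C1qb values, and leaving it out keeps 2 arrays of the vessel. That fit therefore describes the dependence on this array and is no separate test of the difference. Without superior mesenteric artery replicate 1, 6 members passed the F test, where 4.69% of all genes did, among them C1qa (adjusted p = 0.0104), C1qb (adjusted p = 0.00877) and C1qc (adjusted p = 0.035). In that fit descending aorta minus superior mesenteric artery was -1.54 for C1qa (adjusted p = 0.00998), -1.55 for C1qb (adjusted p = 0.011) and -1.27 for C1qc (adjusted p = 0.0239). Coronary artery minus superior mesenteric artery was -1.49 for C1qa (adjusted p = 0.0071), -1.59 for C1qb (adjusted p = 0.00578) and -1.22 for C1qc (adjusted p = 0.0227). For ascending aorta C1qa (-1.48, adjusted p = 0.0348) and C1qb (-1.63, adjusted p = 0.0219) passed and C1qc did not (-1.06, adjusted p = 0.133). Without replicates 2 and 3 the sign turned: ascending aorta minus superior mesenteric artery was 0.78 for C1qa (adjusted p = 0.598), 0.52 for C1qb and 0.57 for C1qc, and none was called. That fit keeps 1 array of the vessel, which is assumed to vary like the other groups.

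The macrophage list varied along with C1q from array to array. All 20 of its 20 markers were measured, and their mean log2 level on the superior mesenteric artery arrays was 6.33 for replicate 1, 7.63 for replicate 2 and 7.16 for replicate 3, against 6.36 to 6.89 on the other 9 arrays. The log2 of the summed marker signal ranged from 11.99 to 13.42 in superior mesenteric artery and reached at most 12.67 in ascending aorta, 12.22 in descending aorta and 12.57 in coronary artery. Cd68, a macrophage lysosomal protein, was 6.67, 8.62 and 7.72 in superior mesenteric artery, and Adgre1, a surface receptor of mature macrophages, was 5.17, 7.57 and 6.75. Mrc1, the mannose receptor of tissue macrophages, was level at 6.69, 6.70 and 6.61. Lyve1, found on lymphatic endothelium and some resident macrophages, was highest in replicate 1, at 9.25, 8.39 and 8.28. No marker was at 0, and limma called 0 of 20 in the F test (2 at an unadjusted p under 0.05, where 16.4% of all genes fell under it).

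The correlation with the macrophage list mean was r = 0.969 for C1qa, 0.960 for C1qb and 0.974 for C1qc over 12 arrays. Over the 10 arrays without superior mesenteric artery replicates 2 and 3 it was 0.817, 0.707 and 0.848. The chains also correlated with each other, at 0.967 for C1qa and C1qb, 0.957 for C1qa and C1qc, and 0.944 for C1qb and C1qc, and over the 10 arrays at 0.781, 0.754 and 0.628. These values describe arrays that share 1 normalization and 4 tissue sources. The B cell, T cell and neutrophil lists were also higher in superior mesenteric artery replicates 2 and 3 than in replicate 1. The part of macrophages or of these cells in the C1q values was not tested.

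**Figure D3:**
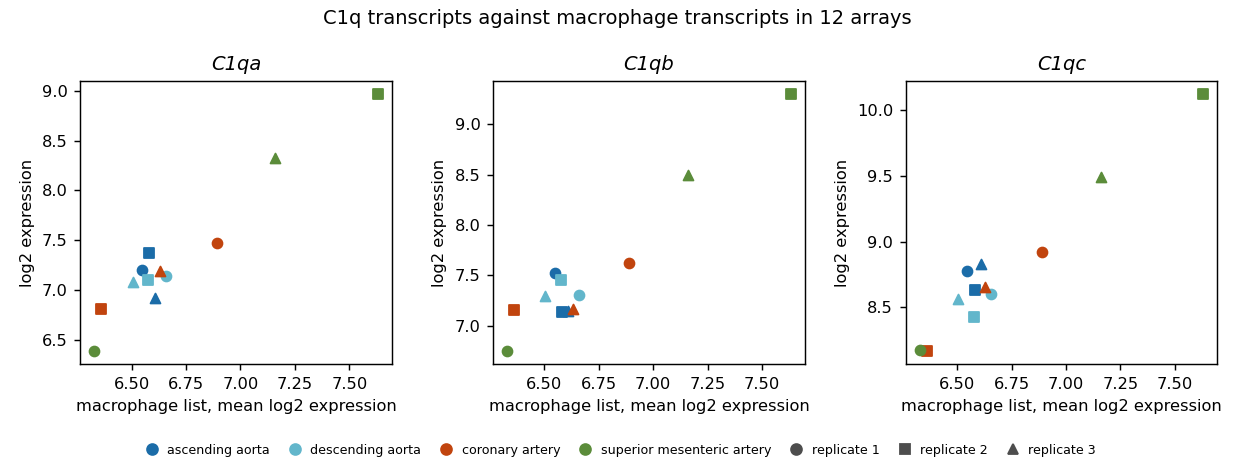
Log2 levels of C1qa, C1qb and C1qc against the mean log2 level of 20 macrophage markers, 1 point per array, coloured by vessel and shaped by replicate. Superior mesenteric artery replicates 2 and 3 lie at the upper right, at macrophage means of 7.63 and 7.16, and replicate 1 at the lower left, at 6.33.

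C4b and C1s1, like the C1q genes and Cfb, had their highest means in superior mesenteric artery. C4b, the mouse C4 gene whose product is cleaved by C1s, read 7.20, 8.34 and 7.73 there, with a mean of 7.76 ± 0.57. It read 6.34, 6.65 and 6.36 in ascending aorta, 6.66, 6.43 and 6.73 in descending aorta, and 7.08, 6.58 and 5.95 in coronary artery. All 3 superior mesenteric artery arrays therefore lay above the other 9. The F test missed the threshold (adjusted p = 0.0605), as did the 2.47-fold difference from ascending aorta (-1.30 ± 0.31, adjusted p = 0.157), the 2.33-fold difference from coronary artery (adjusted p = 0.0551) and the 2.22-fold difference from descending aorta (adjusted p = 0.0703). C4b passed the F test after a repeated quantile normalization (adjusted p = 0.0465), with array weights (adjusted p = 0.0174), and without superior mesenteric artery replicate 1 (adjusted p = 0.0287), ascending aorta replicate 1 (adjusted p = 0.0441) or coronary artery replicate 1 (adjusted p = 0.0439). Without ascending aorta replicate 1 the differences from coronary artery (adjusted p = 0.0319) and descending aorta (adjusted p = 0.0397) passed at the same size. C4b correlated with the macrophage list mean at r = 0.788 over the 12 arrays and at -0.059 without superior mesenteric artery replicates 2 and 3. With the hepatocyte list mean it correlated at r = 0.580 and 0.393 over the same sets of arrays. The part of either list in the C4b values was not tested. C4a is a near copy of C4b. Its probe set read 3.44 to 3.79 in superior mesenteric artery and 2.74 to 3.20 on the other 9 arrays (F test adjusted p = 0.119). How far the C4b probes also bind the C4a transcript is not known.

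C1s1 encodes the C1s protease that cleaves C4 and C2. It read 6.28, 7.38 and 6.72 in superior mesenteric artery, 6.61, 5.96 and 6.49 in descending aorta, 5.64, 6.32 and 5.99 in ascending aorta, and 5.61, 5.96 and 5.40 in coronary artery. Coronary artery did not overlap superior mesenteric artery, and the difference of -1.14 ± 0.29 was 2.20-fold and did not pass (adjusted p = 0.0595). It passed without superior mesenteric artery replicate 1 (-1.39, adjusted p = 0.0257), without ascending aorta replicate 1 (adjusted p = 0.0275) and with array weights (adjusted p = 0.0198). C1s1 and C4b correlated at r = 0.802 over the 12 arrays and at 0.452 without superior mesenteric artery replicates 2 and 3. C1s1 has a paralog, C1s2, read at 2.73 to 3.80, which its probes could share.

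C2 and Cfb encode the proteases of the classical and the alternative pathway and lie next to each other on chromosome 17. Their vessel means ran in different orders, but neither gene passed the F test (limma adjusted p = 0.306 for C2 and 0.281 for Cfb). C2 was 5.13, 5.40 and 5.30 in ascending aorta, 5.55, 5.48 and 6.18 in descending aorta, 6.20, 6.82 and 6.14 in coronary artery, and 5.13, 6.70 and 6.69 in superior mesenteric artery. Ascending aorta and coronary artery did not overlap, with a difference of -1.11 ± 0.38 (2.16-fold, adjusted p = 0.177). This passed without superior mesenteric artery replicate 1 (adjusted p = 0.0291) and without replicates 2 and 3 (adjusted p = 0.0473), although neither fit changes the ascending aorta and coronary artery values themselves. C2 correlated at r = 0.872 with the mean of the mesothelial list, which was 6.85 to 7.50 in coronary artery and 3.95 to 5.84 in ascending aorta, and that list's part in the C2 values was not tested.

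Cfb was 8.61, 7.41 and 7.02 in ascending aorta, 7.35, 7.30 and 7.20 in descending aorta, and 6.48, 9.18 and 7.62 in superior mesenteric artery. In coronary artery it was 6.34, 6.00 and 6.14, below all of the other 9 arrays. The coronary mean of 6.16 ± 0.17 was 2.87-fold under ascending aorta (adjusted p = 0.201), 2.17-fold under descending aorta (adjusted p = 0.429) and 3.02-fold under superior mesenteric artery (adjusted p = 0.168), and none of these passed. The last passed without superior mesenteric artery replicate 1, at -2.24 with an adjusted p of 0.024, and the first passed without replicates 2 and 3 of that vessel (adjusted p = 0.0448). Over the 12 arrays Cfb correlated with the cardiomyocyte list mean at r = -0.694, and that list's part in the Cfb values was not tested. C2 and Cfb correlated at r = -0.050 over the 12 arrays and at -0.655 without superior mesenteric artery replicates 2 and 3.

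The wider pathway was read through a list of 49 other complement genes, of which 46 were measured. limma called 1 of 46 in the F test, Vsig4, against the background of 4.72%, and 8 had an unadjusted p under 0.05, where 16.4% of all genes did. It called 0 of 46 in each of the 6 contrasts, where 3 to 8 members had an unadjusted p under 0.05 and 7.22% to 14.8% of all genes did. Vsig4 encodes CRIg, a macrophage receptor for C3 fragments. Its log2 level was 2.03, 2.65 and 3.19 in ascending aorta, 3.87, 4.33 and 3.54 in descending aorta, 6.24, 4.50 and 7.38 in coronary artery, and 4.36, 9.07 and 8.19 in superior mesenteric artery. All ascending aorta values lay below all others (F test adjusted p = 0.0483). The call is close to the threshold: the adjusted p was 0.0615 after a repeated quantile normalization and 0.0825 with an intensity trend. Of the 12 fits that each left out 1 array, Vsig4 passed without coronary artery replicate 2 (adjusted p = 0.0473) and without superior mesenteric artery replicate 1, and missed in the other 10. Over all alternatives it ran from 0.000944 without superior mesenteric artery replicate 1 to 0.214 without 3 arrays that stood apart in lymphocyte (ascending aorta replicate 1), cardiomyocyte (descending aorta replicate 1) or pancreatic acinar (superior mesenteric artery replicate 3) lists.

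Several other pathway genes varied within superior mesenteric artery as C1q did. Fcna, a ficolin that starts the lectin pathway, was 6.32, 8.84 and 8.10 in superior mesenteric artery against 5.72 to 6.36 on the other 9 arrays (F test adjusted p = 0.0779). Itgam, a chain of complement receptor 3, was 5.36, 8.60 and 7.87 there, and C3ar1, the C3a receptor, was 5.33, 7.54 and 6.81. Cfp, which encodes properdin, the stabiliser of the alternative pathway convertase, was 6.03, 8.81 and 8.04 there and 7.73 in ascending aorta replicate 1. These receptors and Cfp lay low in superior mesenteric artery replicate 1 and high in replicates 2 and 3, the order seen for C1q. In ascending aorta replicate 1, Cr2, the complement receptor of B cells, was 7.24 against 2.82 and 2.11 in its group. The same array gave the highest Cd55, a membrane inhibitor of the convertases, at 8.07, and the lowest Cd59a, the inhibitor of the membrane attack complex, at 4.77. Serping1, the inhibitor of C1s, was 8.85, 10.19 and 9.97 in ascending aorta and 9.51 to 10.15 elsewhere (F test adjusted p = 0.906). Clu, an inhibitor of the membrane attack complex, was 9.43, 8.99 and 9.19 in ascending aorta and 8.38, 7.85 and 8.60 in descending aorta, groups that did not overlap and differed by 0.93 without passing (adjusted p = 0.391). Hc, which encodes C5, and C8a, C8b and C9 lay between 1.87 and 3.36 on all 12 arrays. C8g, another terminal gene, lay higher, between 3.93 and 5.20. Its descending aorta arrays did not overlap superior mesenteric artery, and the difference of 0.84 did not pass (limma adjusted p = 0.068).

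**Figure D4:**
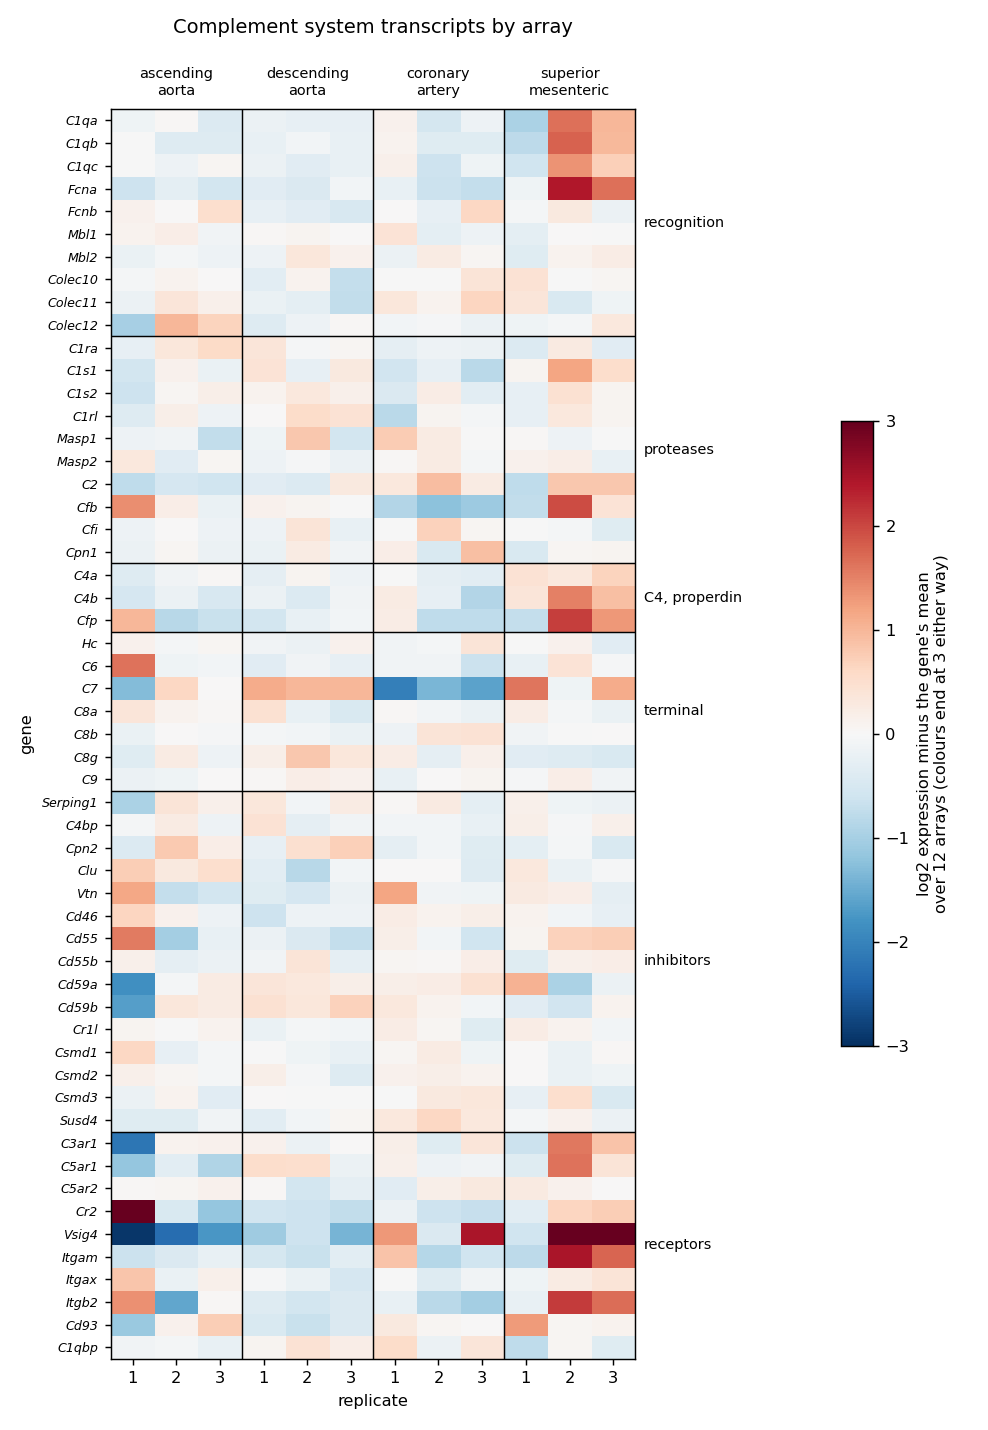
Log2 level of all 55 measured complement genes on the 12 arrays, each minus the gene's own mean over the arrays, ordered by role in the pathway. Superior mesenteric artery replicates 2 and 3 are high for the C1q genes and several receptors, and the coronary artery arrays are low for C7 and Cfb.

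The genes whose log2 values followed each member most closely over the 12 arrays were taken by Pearson r, 3 per member. For C1qa they were C1qb (0.967), C1qc (0.957) and Lilr4b (0.945), an inhibitory receptor of myeloid cells. C1qb had Pilra (0.955), a myeloid receptor, beside the other chains, and C1qc had Fcer1g (0.955), the Fc receptor chain that is also in the macrophage list. For C4b they were Hgsnat (0.944), Fcna (0.933) and Dpep2 (0.920), and for C1s1 they were Zbtb6 (0.907), Emp3 (0.885) and Hgsnat (0.883). C2 followed Rspo1 (0.946), a member of the mesothelial list, Pfdn5 (0.937) and Lsm7 (0.923). C6 had Tnfsf8 (0.963), Serpina10 (0.955) and Sidt1 (0.948), C7 had Lgi2 (0.951), Ccdc3 (0.926) and H6pd (0.904), and Cfb had Add3 (0.941), Capza1 (0.937) and Gusb (0.928). For C6, ascending aorta replicate 1 stands above the other 11 arrays, and the likeness was not recomputed without it. By rank (Spearman rho) C6 correlated with its 3 genes at 0.566, 0.692 and 0.755.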

How the data were processed

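Each of the 12 arrays is a biological replicate of 1 of 4 vessels. The authors deposited log2 values for 35556 probe sets; the submitters' processing notes name RMA and Partek 6.6 without order or roles, and no further step is named. Of the probe sets, 21789 had 1 gene symbol, 1621 several and 12146 none; the last 2 kinds were left out. For 999 genes with more than 1 probe set the one with the highest mean was used, leaving 19938 genes. All 12 arrays entered 1 linear model of vessel means in limma 3.58.1 (R 4.3.3, data.table package version 1.17.8), with a moderated F test and 6 contrasts, Benjamini-Hochberg adjustment over all genes and a threshold of 0.05. The procedure was tested on simulated data. Promoter windows came from RefSeq on GRCm38.p6. Figures used Python 3.11.15 and matplotlib 3.10.9.

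Members were taken from a list of symbols, and all measured members are named; other pathway genes were named where they passed a test or are a receptor, inhibitor or paralog of a member, and 3 genes per member by likeness. Fcna, Cfp, Itgam, C3ar1, Cr2, Cd55, Cd59a, Clu and C8g, of which none passed, were picked after their values were seen. The members and lists were chosen with earlier results of these data known, and the cell type lists share genes with each other and with the pathway list. Alternatives tried were a repeated quantile normalization, centring, a filter on dim genes, averaged probe sets, array weights, an intensity trend, a replicate block, a threshold of 0.01, fitting a pair alone, and leaving out arrays. The fit without superior mesenteric artery replicates 2 and 3 was added after the data were seen.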

Additional observations from a re-analysis of the deposited data

How the results depend on the processing

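Of the recomputed member counts, 135 equalled the main count and 25 did not. Every main count was 0 or 1, and a count of 0 that stayed 0 says little of stability where few genes are called. Shares in parentheses are those of all tested genes called in the same fit. Member counts in the F test (1 in the report) were 2 after a repeated quantile normalization (4.68%), 2 under array weighting (9.12%) and 0 at an adjusted p under 0.01 (2.2%). They ranged from 0 without coronary artery replicate 3 (3.02%) to 6 without superior mesenteric artery replicate 1 (4.69%). For coronary against superior mesenteric artery (1 in the report) they were 2 after quantile normalization (3.43%), 2 without the dimmest genes (4.36%) and 4 with array weights (5.66%), and ranged from 0 without superior mesenteric artery replicate 3 (1.83%) to 7 without replicate 1 (3.04%). Ascending aorta against coronary artery gave 1 with array weights (4.45%), 1 without the 3 arrays that stood apart in lymphocyte, cardiomyocyte or pancreatic lists (3.34%) and 2 without superior mesenteric artery replicates 2 and 3 (2.44%), with 0 to 1 over single arrays left out (1.26% to 3.85%). Ascending aorta against superior mesenteric artery gave 1 with array weights (2.22%) and 0 to 2 over single arrays, the 2 without superior mesenteric artery replicate 1 (0.386%). Descending aorta against superior mesenteric artery gave 1 after quantile normalization (3.04%), 1 with array weights (6.8%) and 0 to 4 over single arrays, the 4 without that same array (2.46%). Coronary artery against descending aorta gave 2 when its 6 arrays were fitted alone (6.32%).

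Signs were followed for the 15 member differences with an unadjusted p under 0.05. Under their alternatives 321 values kept direction and side of the threshold, 22 newly passed, 1 no longer passed and 1 reversed: C2 in ascending aorta minus superior mesenteric artery came to 0.15 without superior mesenteric artery replicates 2 and 3. Of the other 39 member differences, 28 turned sign in at least 1 alternative, the C1q differences from superior mesenteric artery among them. The causes were not tested beyond the arrays left out.

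The labels do not say whether same-numbered arrays came from the same animals. Deviations from vessel means correlated at -0.251 to 0.0889 over 18 same-numbered pairs of arrays from different vessels. Over 36 differently numbered pairs they correlated at -0.207 to 0.268. These overlapping ranges show no pairing by number and cannot exclude one. With the replicate block 1 member passed the F test, C7, where 4.55% of all genes did. Counts over all genes ranged in the F test from 438 at a threshold of 0.01 to 1825 without ascending aorta replicate 1 (942 in the report), and for ascending aorta against superior mesenteric artery from 0 to 628 (35 in the report). With 3 arrays a vessel a difference that missed the threshold is not shown to be absent.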
